A study of Mus musculus with 9 samples.

Results

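The step from embryonic stem cells at day 0 to embryoid bodies at day 4 was described in wild-type mouse cells, over all genes that had at least 5 TPM at day 4 or at day 0. TPM is the authors' abundance of a gene, scaled by transcript length and by library. The level filter kept 12392 of 49311 named genes. Of those kept, 559 had a higher level between 5 and 6 TPM, and 650 genes left out had one between 4 and 5 TPM, the highest at 4.999. The data are 2 of the 9 polyA+ RNA-seq libraries of the series. Each wild-type day is 1 library, so values and fold sizes are given with no test.

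Wild-type embryoid bodies were sampled at day 4 of differentiation, after aggregation of stem cells in hanging drops. Wild-type embryonic stem cells were sampled at day 0, from serum culture (15% fetal serum) with leukemia inhibitory factor (LIF, 1000 U per ml), a cytokine that holds mouse stem cells in the undifferentiated state. Lines G6 and H8, both labelled Hnrnpll-/-, gave 1 library each at day 4 and at day 0, under the same culture description. They share no library with the wild-type step and were used for the direction of change only. The labels give no strain, no sex and no feeder cells, and do not say whether libraries came from separate cultures. Wild type is a single line, and so is each knockout name, so genotype and line cannot be told apart. The product of Hnrnpll binds RNA and regulates splicing, as relatives in the hnRNP group do. Its level at day 4 and day 0 was 61.2 and 54.9 TPM in G6 and 38.6 and 24.5 TPM in H8, against 101.1 and 77.1 TPM in wild type. Transcripts of the targeted gene were thus still counted in both lines, and the labels do not say which stretch was deleted.

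Total counts were 122070338 at day 4 and 113023429 at day 0 in wild type. In the knockout lines they were 126428498 and 137703080 at day 4, and 54202944 and 61611725 at day 0. The day 0 knockout libraries also stood apart in their low counts. Of counts up to 40, 43.5% and 42.6% fell on multiples of 4 in those libraries, against 30.5% to 33.2% in the other libraries and the 25% that even spacing gives. The reason is not known, single counts may not be independent fragments, and every knockout step below rests on one of those day 0 libraries. Of 201 genes named by rule, 87 overlap another annotated gene and the use of strand is not given, so their levels are uncertain. They include Pou5f1, Sox2, Otx2, Dnmt3b, Dnmt3l, Tet1, Tet2, Eomes, Evx1, Fst, Cdh2, Rbpj, Spp1, Col1a2, Tnc, Lox and Ccl2.

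Marker genes fitted the labels in outline. The 6 stem cell markers summed to 1453 TPM at day 4 and 2641 TPM at day 0, and each was above 1 TPM in both libraries. The 4 primitive streak markers summed to 1431 TPM at day 4 and 7.38 TPM at day 0. The 5 nascent mesoderm markers summed to 174.9 and 7.93 TPM, and the 3 definitive endoderm markers to 75.2 and 2.32 TPM, at day 4 and day 0. Markers of later tissues stayed low. Neuroectoderm markers summed to 4.44 TPM at day 4 and 10.9 TPM at day 0, cardiomyocyte markers to 1.72 and 3.63 TPM, blood and endothelium markers to 1.39 and 1.67 TPM, and extraembryonic endoderm markers to 2.7 and 1.93 TPM. Trophoblast markers summed to 23.0 and 7.62 TPM, most of it at day 4 from Cdx2, which posterior mesoderm shares. The embryonic globin genes Hbb-y and Hbb-bh1 had 0 counts on both days. Markers of another cell type were also counted at day 0: 6 fibroblast or feeder markers (Col1a1, Col1a2, Col3a1, Thy1, Dcn and Lum) summed to 7.81 TPM at day 4 and 162.5 TPM at day 0, with Lum at 0.056 and 0.0959 TPM. In bulk RNA, fewer cells of a type and less RNA per cell cannot be told apart.

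In the mouse embryo, cells of the inner cell mass hold a naive pluripotent state kept by factors such as Klf4, Esrrb and Tfcp2l1 together with the core factors Oct4 (gene Pou5f1), Sox2 and Nanog. After implantation the epiblast passes through a formative state marked by Fgf5, Otx2 and Dnmt3b, and gastrulation then starts in the primitive streak, where Wnt3 and Nodal signals switch on T (Brachyury), Eomes and Mixl1. Cells that leave the streak become mesoderm or definitive endoderm, and embryoid bodies pass through related states in culture.

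Promoter sequences of 4 genes of the streak and of pluripotency are shown first, from the RefSeq table of build GRCm38.p6. Each is the stretch of 250 bases before the transcription start, on the gene's own strand. T and Sp5 stand for the streak program and for the WNT response, and their capitals mark letters that TCF/LEF factors, the DNA-binding partners of beta-catenin, are known to bind. The letters searched, on both strands, were CTTTG followed by AT, AA, TT or TA.
T, chr17:8434173-8434422, plus strand: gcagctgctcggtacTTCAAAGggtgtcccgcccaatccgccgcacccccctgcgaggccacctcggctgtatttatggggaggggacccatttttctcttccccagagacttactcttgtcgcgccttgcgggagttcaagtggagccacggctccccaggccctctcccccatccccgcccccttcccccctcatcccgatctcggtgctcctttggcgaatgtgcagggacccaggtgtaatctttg
Sp5, chr2:70474673-70474922, plus strand: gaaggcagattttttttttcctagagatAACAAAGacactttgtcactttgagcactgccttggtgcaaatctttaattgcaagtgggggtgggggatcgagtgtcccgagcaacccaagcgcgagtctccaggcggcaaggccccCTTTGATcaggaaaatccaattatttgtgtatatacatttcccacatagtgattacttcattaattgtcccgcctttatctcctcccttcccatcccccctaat
The T window holds 1 match, which starts 235 bases before the transcription start. The Sp5 window holds 2 matches, which start 222 and 104 bases before it. Of 32851 promoter windows of this length in the table, 14.8% hold at least 1 match, as do 5 of the 15 windows found for streak genes (33.3%), 4 of 12 for general pluripotency genes (33.3%), 7 of 36 for WNT pathway genes (19.4%), 3 of 16 for nascent mesoderm genes (18.8%) and 1 of 14 for naive genes (7.14%). Zfp42 and Nanog stand for pluripotency (Zfp42 was lower at day 4 and Nanog within 2-fold), and their capitals mark sites of the Oct4 family: the octamer ATGCAAAT in Zfp42, and a composite SOX-OCT element in Nanog, whose letters are those in capitals, on either strand. The composite holds all but the last letter of the octamer.
Zfp42, chr8:43307010-43307259, minus strand: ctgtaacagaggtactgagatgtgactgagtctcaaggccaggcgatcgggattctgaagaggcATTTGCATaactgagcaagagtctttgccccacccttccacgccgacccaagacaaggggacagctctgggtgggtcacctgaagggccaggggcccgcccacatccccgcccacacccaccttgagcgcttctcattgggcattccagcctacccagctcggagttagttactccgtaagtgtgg
Nanog, chr6:122707239-122707488, plus strand: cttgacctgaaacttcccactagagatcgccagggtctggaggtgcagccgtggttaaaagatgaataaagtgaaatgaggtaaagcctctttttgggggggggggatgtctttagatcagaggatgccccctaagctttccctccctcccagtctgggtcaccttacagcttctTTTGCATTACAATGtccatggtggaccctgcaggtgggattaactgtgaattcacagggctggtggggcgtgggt
The octamer starts 186 bases before the Zfp42 start and is held by 1.6% of all windows. The composite starts 75 bases before the Nanog start, and the 2 windows of the table that hold it are both of Nanog, which has 2 annotated starts. A match is a description of letters, and binding was not measured here.

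Across the transcriptome, more genes were lower than higher at day 4. A gene was counted where its level differed by 2-fold or more on the log2(TPM + 1) scale, which understates the change of genes with few transcripts. By this count 857 genes were higher (6.92% of the 12392 kept) and 1227 were lower (9.9%) at day 4. The 2084 genes past 2-fold made up 16.8%. With 4-fold or more, 187 genes were higher (1.51%) and 448 lower (3.62%), so the share of higher genes among those counted was 29.4% at 4-fold and 41.1% at 2-fold. The median log2 difference over all genes kept was -0.039.

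The only parallel libraries on these days are those of G6 and H8, and they give a scale for differences with no change of day. Between the lines, 225 of the same genes (1.82%) differed by 2-fold or more at day 4 and 807 (6.51%) at day 0. The median absolute log2 difference was 0.394 between the wild-type days, against 0.172 between lines at day 4 and 0.309 between lines at day 0. Among these genes the wild-type step held more 2-fold differences than either pair of lines, although the 2 knockout lines are not replicates of wild type. The level filter used the wild-type libraries alone. It thus let in genes high on a single wild-type day, also where they were near 0 in both lines, which by itself favours the wild-type step.

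Direction was mostly shared with the knockout lines, with exceptions. Of the 857 genes higher in wild type at day 4, 650 (75.8%) were also higher in both lines, where 37.9% of all genes kept were. By the same count, 781 of the 1227 lower genes (63.7%) were lower in both lines, where 36.1% of all genes kept were. A 2-fold difference in the same direction in both lines was found for 316 of the higher genes (36.9%; 8.7% of all genes kept) and for 299 of the lower genes (24.4%; 3.53% of all genes kept). Opposite signs in both lines were found for 76 higher genes (8.87%) and 218 lower genes (17.8%). The steps were smaller in the lines: the higher genes had a median log2 difference of 1.4 in wild type, 0.827 in G6 and 1.05 in H8, and the lower genes had -1.69 in wild type, -0.482 in G6 and -0.722 in H8. The genes were picked on the wild-type step, which by itself makes its median the larger.

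**Figure D1:**
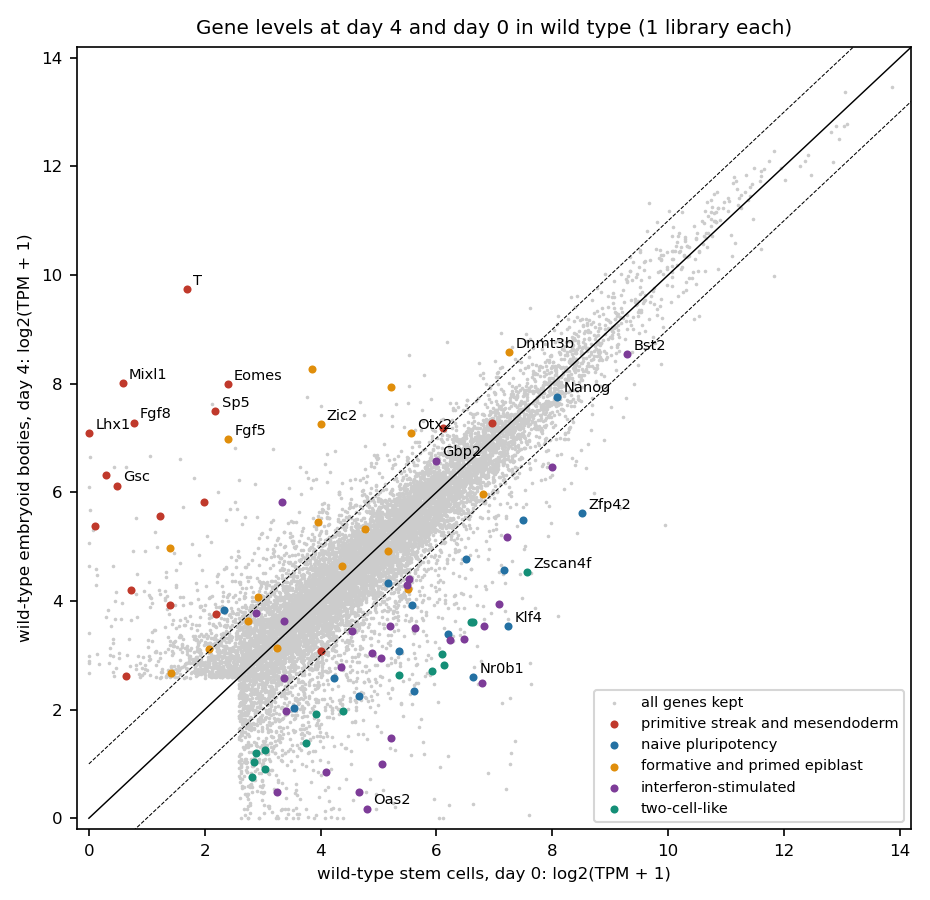
Level of each of the 12392 genes kept, as log2(TPM + 1), in wild-type embryoid bodies at day 4 (vertical axis) and wild-type stem cells at day 0 (horizontal axis), 1 library each. The solid line marks equal levels, dashed lines mark a 2-fold difference, and colours mark 5 gene lists: most streak genes lie far above the upper line, and most naive, interferon-stimulated and two-cell-like genes lie below the lower one.

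The naive pluripotency network was lower at day 4 almost throughout. Of 16 naive genes, 13 were lower, 1 was higher and 2 lay within 2-fold, with a median log2 difference of -2.15. All 16 passed the level filter. Klf4, a Krüppel-like factor that keeps the naive state downstream of LIF, had 10.6 TPM at day 4 and 150.3 TPM at day 0, a 14.1-fold lower level. Nr0b1, which encodes the nuclear receptor Dax1, had 5.09 and 98.3 TPM (19.3-fold lower). Zfp42, the stem cell marker known as Rex1 whose promoter is printed above, had 48.3 and 366 TPM (7.58-fold lower). These naive factors were thus strongly reduced but still counted at day 4.

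Esrrb, an orphan nuclear receptor of the naive network, had 22.9 TPM at day 4 and 143 TPM at day 0 (log2 difference -2.59). Tfcp2l1, a target of LIF and STAT3 signalling, had 9.55 and 72.5 TPM (-2.80), and Pecam1, an adhesion molecule on naive cells and endothelium, had 4.05 and 48.0 TPM (-3.28). Fgf4, the stem cells' own differentiation signal, was 3.28-fold lower, and Prdm14, a repressor of epiblast genes and of DNA methyltransferases, was 3.49-fold lower. Dppa3 (Stella), an oocyte and germ cell factor, went the other way with 13.3 TPM at day 4 and 4.03 TPM at day 0. All 13 lower genes were also lower in both knockout lines, as were 63.7% of all genes lower in wild type. The list medians there were -1.84 in G6 and -2.22 in H8. Klf4, for instance, had 19.2 TPM at day 4 and 289 TPM at day 0 in G6, and 18.9 and 700 TPM in H8.

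Of the core pluripotency factors, Pou5f1 and Nanog lay within 2-fold and Sox2 was lower. Pou5f1 had 1060 TPM at day 4 and 1372 TPM at day 0, a ratio of 1.29 in favour of day 0. Nanog, which anchors the naive state and marks the early posterior epiblast again, had 216 and 272 TPM. In the lines Nanog was lower by more, with 144 TPM at day 4 and 583 TPM at day 0 in G6, and 214 and 606 TPM in H8. Sox2, which is kept in the neural and lost in the mesodermal lineage, had 94.5 TPM at day 4 and 339 TPM at day 0 in wild type (log2 difference -1.83). In G6 it had 255 and 380 TPM and in H8 221 and 376 TPM, so Sox2 at day 4 stood lower in wild type than in either line.

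Of 17 genes of general pluripotency, 8 were lower and none was higher, with a median of -0.867. All 17 passed the filter. The lower ones by rule included Dppa2 (22.0 and 197 TPM at day 4 and day 0), a chromatin factor that primes bivalent and early embryonic genes, Rex2 (13.7 and 88.5 TPM) and Gdf3 (14.5 and 77.6 TPM), a TGF-beta family ligand. Dppa5a, an RNA-binding protein abundant in stem cells, had 1008 TPM at day 4 and 3647 TPM at day 0, and Utf1, a chromatin factor, had 102 and 269 TPM. Of the 8 lower genes, 6 had the same sign in both lines, and 63.7% of all genes lower in wild type did.

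Genes linked to the ground state (the naive state held by blocking ERK and GSK3) behaved like the naive list. Of 16 such transcripts, 13 were lower and 1 was higher, with a median of -2.77. Spp1, the secreted phosphoprotein osteopontin, had 41.2 TPM at day 4 and 987 TPM at day 0. Laptm5, a lysosomal membrane protein, had 2.21 and 51.0 TPM, Mras, a RAS family GTPase, had 0.998 and 22.1 TPM, and Fbxo15, an Oct4 target, had 37.2 and 342 TPM. Ifitm1 was the higher one, with 212 TPM at day 4 and 104 TPM at day 0. It is an interferon-inducible membrane protein also known from the posterior epiblast.

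LIF and STAT3 signalling genes shifted less. Of 12 genes, 11 passed the filter (the other stood at 2.31 TPM at most), 4 were lower and none was higher, with a median of -0.909. Stat3, the transcription factor that LIF activates, had 32.4 TPM at day 4 and 79.9 TPM at day 0. Socs3, its target and feedback inhibitor, had 19.5 and 45.6 TPM. Osmr, a receptor of the same cytokine family that fibroblasts also carry, had 0.287 and 5.07 TPM, and the kinase gene Tyk2 had 11.1 and 26.1 TPM. All 4 were lower in both lines as well.

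Formative epiblast genes moved the other way. Of 18 genes, all above the filter, 11 were higher, 1 was lower and 6 lay within 2-fold, with a median log2 difference of 1.2 in wild type, 2.03 in G6 and 1.95 in H8. All 11 higher genes were higher in both lines, as were 75.8% of all genes higher in wild type. Fgf5, the classical ligand of the post-implantation epiblast, had 126 TPM at day 4 and 4.3 TPM at day 0 (29.3-fold higher). In G6 it had 41.1 and 0.0826 TPM and in H8 57.3 and 0.37 TPM. The day 0 level was thus above 1 TPM in wild type and below it in both lines.

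Fst, which encodes the activin antagonist follistatin, had 308 TPM at day 4 and 13.5 TPM at day 0. Car14, a membrane carbonic anhydrase, had 30.6 and 1.64 TPM, and Zic2, a zinc finger factor that acts with Otx2 at primed enhancers, had 152 and 15.0 TPM. Dusp6, an ERK phosphatase and readout of ERK activity, had 243 and 36.2 TPM. These 4 genes were between 6.71-fold and 22.9-fold higher. Otx2, the homeobox factor that drives exit from the naive state, had 135 TPM at day 4 and 46.3 TPM at day 0, and Dnmt3b, the de novo DNA methyltransferase of the epiblast, had 382 and 152 TPM. Grhl2, an epithelial enhancer factor of the formative state, was the lower one, with 17.7 and 44.5 TPM in wild type. In the lines it lay the other way, with 16.0 TPM at day 4 and 3.32 TPM at day 0 in G6, and 28.3 and 9.02 TPM in H8.

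**Figure D2:**
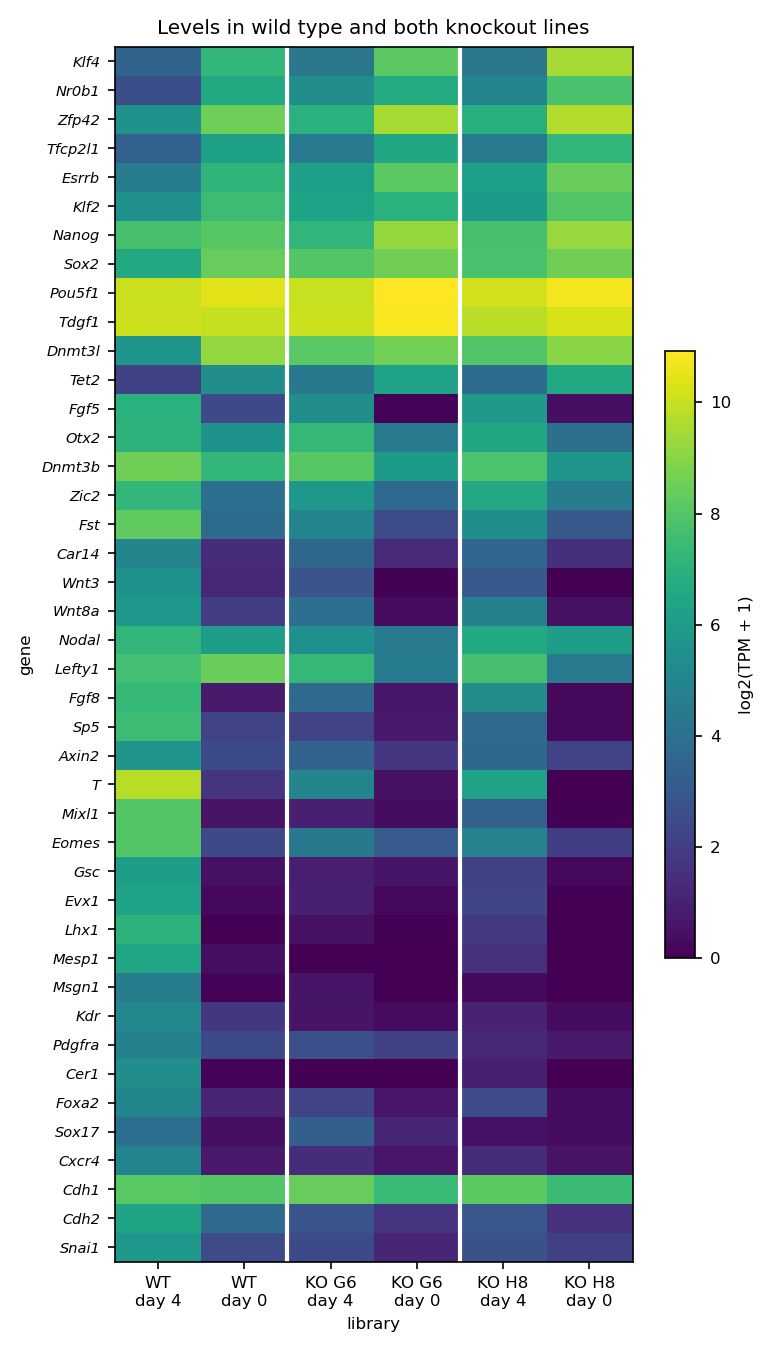
Levels of 42 genes as log2(TPM + 1), 1 library per column, with day 4 left of day 0 for wild type (WT) and for the knockout (KO) lines G6 and H8. Most naive genes at the top are darker at day 4 in the 3 backgrounds, while T, Mixl1, Eomes, Lhx1 and Mesp1 are highest in wild type at day 4 (T 853 TPM there, against 30.7 and 78.5 TPM in G6 and H8).

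Primitive streak genes made up the strongest gains. Of 20 streak and mesendoderm genes, 18 passed the filter, and of those 16 were higher and none was lower. Members low at day 0 passed only through their day 4 level, so this count describes the members and supports nothing. The median log2 difference was 4.80 over the 18 and 4.08 over all 20 with the 2 low members, Wnt3a and Cdx1, included. T, the T-box factor of the streak and the notochord, had 853 TPM at day 4 and 2.23 TPM at day 0, from 100766 and 250 counts (382-fold higher). In G6 it had 30.7 and 0.392 TPM and in H8 78.5 and 0 TPM. So T was higher at day 4 in all 3 backgrounds, and its level at day 4 in wild type was above that in either line.

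Mixl1, a homeobox factor of the streak that guides mesendoderm, had 256 TPM at day 4 and 0.497 TPM at day 0 (514-fold higher). In G6 it had 0.935 and 0.299 TPM and in H8 9.56 and 0.0523 TPM. Lhx1, a LIM homeobox factor of anterior mesendoderm, had 32517 counts and 134.7 TPM at day 4 and 0 counts at day 0. Set against a floor of 3 counts in that library, it was at least 10036-fold higher. The bound covers counting error only.

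Eomes, the T-box factor needed for definitive endoderm and for mesoderm migration, had 253 TPM at day 4 and 4.26 TPM at day 0. Evx1, a posterior streak homeobox factor, had 78.6 and 0.224 TPM, and Gsc, the organizer factor goosecoid, had 68.8 and 0.392 TPM. Anterior and posterior streak genes were therefore both high in the same library. Fgf8, the growth factor that mesoderm needs to leave the streak, had 155 and 0.71 TPM (218-fold higher). Cer1, a secreted antagonist of Nodal, BMP and WNT made by anterior endoderm, had 40.7 and 0.077 TPM. Of the 16 higher genes, 13 were higher in both lines too, as were 75.8% of all genes higher in wild type. The list medians were lower there, at 0.831 in G6 and 2.14 in H8, and the summed level of the list at day 4 was 266 TPM in G6 and 453 TPM in H8, against 2484 TPM in wild type.

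Nascent mesoderm genes above the filter were mostly higher at day 4 as well. Of 25, 20 passed the filter, with 13 higher and 1 lower and a median of 2.28 (1.28 over all 25). As with the streak list, members low at day 0 passed only through their day 4 level. The count of 13 therefore describes these members and supports nothing. Mesp1, the bHLH factor of the first cardiac and cranial mesoderm, had 87.5 TPM at day 4 and 0.344 TPM at day 0. Aplnr, the apelin receptor of migrating mesoderm, had 50.2 and 0.018 TPM, the day 0 level resting on 4 counts. Its ligand gene Apln had 45.1 and 0.764 TPM. The ligand and its receptor were thus both high at day 4.

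Msgn1, a presomitic mesoderm bHLH factor, had 23.1 TPM at day 4 and 0.0927 TPM at day 0. Kdr, the VEGF receptor of haemangiogenic mesoderm, had 32.2 and 2.46 TPM, and Pdgfra, the receptor of paraxial mesoderm, had 26.9 and 4.47 TPM. Etv2, a master factor of blood and endothelial fate, had 22.7 and 1.84 TPM. At day 4 Etv2 was nearer to wild type in the lines than these genes were, with 13.3 TPM at day 4 and 0.459 TPM at day 0 in G6, and 19.6 and 0.112 TPM in H8. Mesp1, in contrast, had 0 counts on both days in G6, and 1.98 TPM at day 4 and 0 TPM at day 0 in H8. Tcf15, a bHLH factor also active in primed stem cells, was the lower gene, with 16.3 TPM at day 4 and 54.3 TPM at day 0 in wild type.

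Definitive endoderm genes were higher at day 4 wherever they were measurable. All 13 of the 18 that passed the filter were higher, with a median of 2.94 (1.43 over all 18). The 5 below it stood at 2.25 TPM at most, among them Hnf4a, Foxa1 and Foxa3, liver and gut factors. Since a gene that was low at day 0 passed the filter only through its day 4 level, the 13 of 13 describes these members and supports nothing. Cxcr4, the chemokine receptor used to sort endoderm, had 29.2 TPM at day 4 and 0.69 TPM at day 0. Foxa2, the pioneer factor of endoderm and node, had 31.0 and 1.27 TPM, and Sox17, an endoderm determinant, had 15.0 and 0.367 TPM. Gata6, shared by mesendoderm and primitive endoderm, had 27.7 and 2.74 TPM. Levels of these endoderm factors were below those of T or Eomes. In the lines Foxa2 reached 3.66 TPM in G6 and 4.87 TPM in H8 at day 4, against 0.582 and 0.29 TPM at day 0. Sox17 had 8.85 and 1.27 TPM at day 4 and day 0 in G6 and 0.462 and 0.301 TPM in H8.

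Of 15 genes of axial mesoderm and the node, 8 passed the filter and 7 of those were higher, with a median of 2.12 (1.08 over all 15). Here too, members low at day 0 passed only through their day 4 level, so the 7 of 8 supports nothing. Chrd, which encodes the BMP antagonist chordin, had 7.35 TPM at day 4 and 2.52 TPM at day 0. Noto and Shh, which define the mature notochord, stayed at 0.139 TPM or less on both days. Lefty1, a Nodal antagonist, had 205 TPM at day 4 and 359 TPM at day 0 in wild type, but 153 and 23.0 TPM in G6 and 207 and 21.5 TPM in H8. The day 4 levels were close in the 3 backgrounds, and the day 0 level was high in wild type alone.

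**Figure D3:**
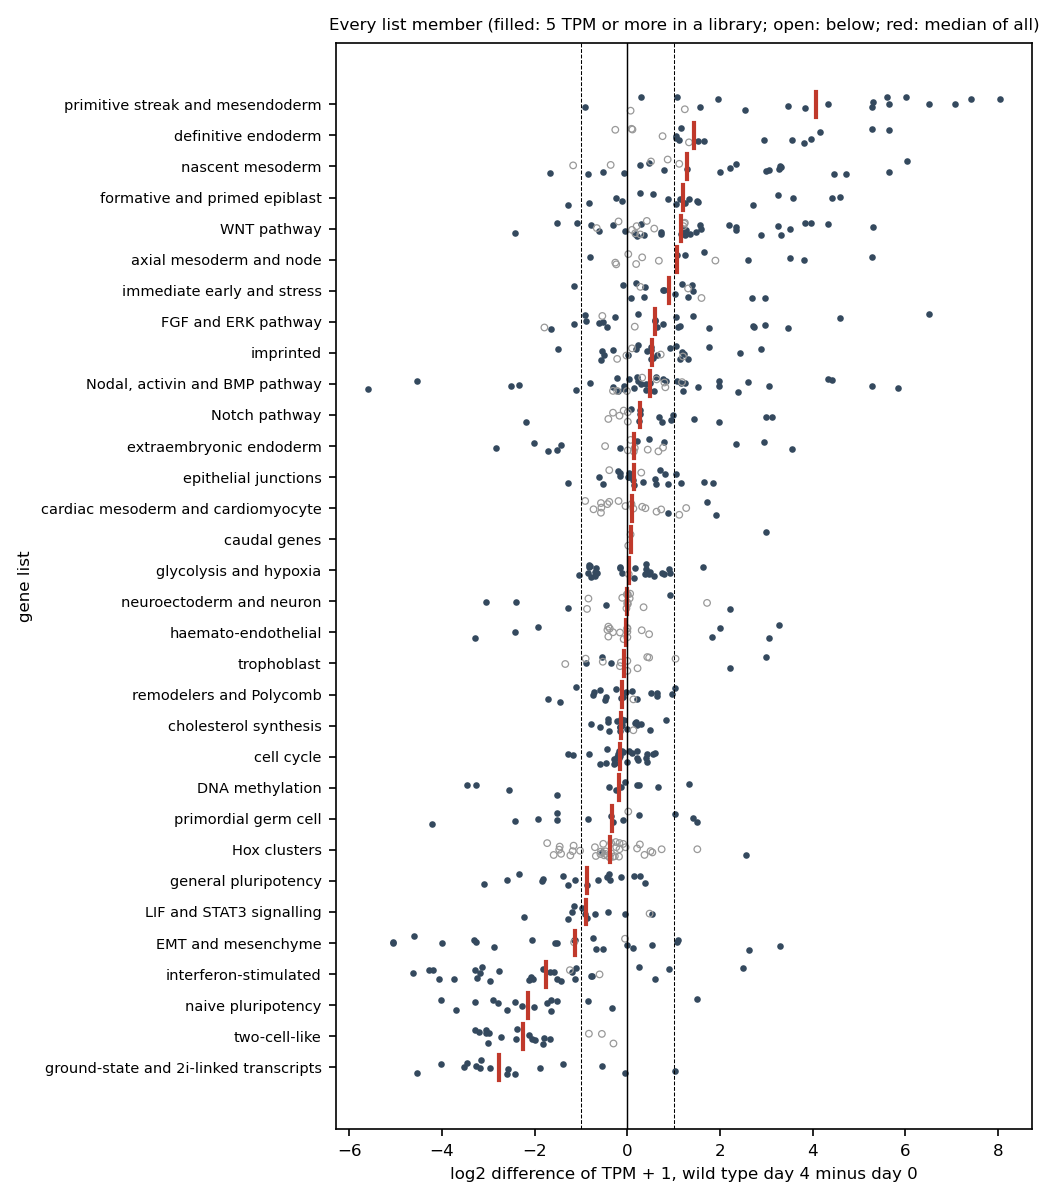
Log2 difference of TPM + 1 (wild type, day 4 minus day 0) for every member of the 32 gene lists, 1 point per gene. Filled points had at least 5 TPM in one of the 2 libraries, open points had less, red bars are medians over all members of a list, and dashed lines mark 2-fold: the streak list has the highest median (4.08) and the ground-state list the lowest (-2.77).

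Signalling genes of gastrulation were taken by pathway. WNT ligands start the streak and act through Frizzled receptors and beta-catenin on TCF/LEF targets. Of 43 WNT pathway genes, 32 passed the filter, 19 were higher and 3 lower, with a median of 1.25 (1.15 over all 43). Among ligands, Wnt3 had 46.3 TPM at day 4 and 1.35 TPM at day 0 (34.3-fold higher), and Wnt8a had 55.6 and 2.97 TPM. Rspo3, a secreted amplifier of WNT signals, had 16.5 and 0.759 TPM. Among targets of the pathway, Sp5, a zinc finger feedback factor, had 180 and 3.54 TPM, and Axin2, a destruction complex scaffold, had 51.0 and 4.42 TPM.

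Secreted genes that limit WNT signals differed in direction. Dkk1, which blocks the LRP coreceptors, had 13.2 TPM at day 4 and 0.256 TPM at day 0, and Frzb, a decoy for ligands, had 29.4 and 0.951 TPM. The lower members were Wnt7b (1.09 and 10.2 TPM), the receptor gene Fzd5 (6.19 and 19.7 TPM) and Notum (6.08 and 14.0 TPM), a WNT-inactivating esterase. In the lines, Wnt8a had 15.1 TPM at day 4 and 0.237 TPM at day 0 in G6, and 26.4 and 0.396 TPM in H8. Dkk1 and Frzb stayed at 1.11 TPM or less at day 4 in both lines. Of the 22 WNT genes past 2-fold, 15 had the same sign in both, as did 1431 of all 2084 genes past 2-fold.

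Of 45 genes of the Nodal, activin and BMP pathways, 37 passed the filter, 14 were higher and 5 lower, with a median of 0.492. Nodal, the TGF-beta ligand that maintains the epiblast and patterns the streak, had 145 TPM at day 4 and 67.9 TPM at day 0. Cfc1 (Cryptic), a Nodal coreceptor of mesoderm, had 21.3 and 0.107 TPM, and Msx1, a BMP target, had 87.6 and 0.553 TPM (158-fold higher). Lefty2, another Nodal antagonist, lay within 2-fold with 154 and 124 TPM. Activin subunits lay the other way: Inhba had 0.277 TPM at day 4 and 60.9 TPM at day 0, and Inhbb 0.121 and 5.39 TPM. Grem1, a BMP antagonist of stromal cells, had 0.437 and 32.7 TPM. Inhba and Grem1, which fibroblasts express, were also lower at day 4 in both lines, with Grem1 at 0.414 and 9.79 TPM in G6 and 0.402 and 17.8 TPM in H8.

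Of 27 FGF and ERK genes, 24 passed the filter, 11 were higher and 2 lower, with a median of 0.703. Further ligands stood with Fgf5 and Fgf8 above day 0. Fgf3 had 17.3 TPM at day 4 and 0.664 TPM at day 0, and Fgf10 had 18.1 and 1.85 TPM. Fgf15, chosen after its values were seen, had 24.3 and 10.5 TPM. Fgf4 and its target Etv4 were lower, Etv4 with 36.2 and 82.2 TPM. The ERK-responsive factor Egr1 had 201 TPM at day 4 and 24.7 TPM at day 0 in wild type. In the lines Egr1 lay the other way, with 58.5 and 82.6 TPM in G6 and 39.8 and 161 TPM in H8.

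Of 19 Notch pathway genes, 13 passed the filter, 4 were higher and 1 lower, with a median of 0.737. Dll3, a modulating ligand of presomitic mesoderm, had 33.1 TPM at day 4 and 3.29 TPM at day 0. The targets Nrarp (24.9 and 1.98 TPM) and Hes1 (147.8 and 36.6 TPM) were higher too. Rbpj, which encodes the DNA-binding mediator of Notch, had 53.0 and 245 TPM and was lower in both lines as well, with log2 differences of -1.19 in G6 and -1.52 in H8.

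Genes of DNA methylation differed in both directions. Of 12 genes, all above the filter, 1 was higher and 4 were lower. The higher one was Dnmt3b (above). Its catalytically inactive partner gene Dnmt3l had 51.2 TPM at day 4 and 574 TPM at day 0, an 11.2-fold lower level. The hydroxymethylating enzymes of stem cells were lower, with Tet1 at 18.4 and 113 TPM and Tet2 at 3.38 and 40.8 TPM, while Tet3, the enzyme of zygote and later tissues, had 7.26 and 4.24 TPM and lay within 2-fold. Dnmt3l was much less reduced in the lines, with 281 and 390 TPM in G6 and 250 and 506 TPM in H8. The maintenance enzyme gene Dnmt1, chosen after its values were seen, had 116 TPM at day 4 and 100.3 TPM at day 0.

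Chromatin remodelers and Polycomb genes mostly lay within 2-fold, with 1 higher and 3 lower of 19 above the filter (of 20) and a median of -0.13. The lower ones were accessory and core members of Polycomb repressive complex PRC2, which silences developmental genes: Jarid2 had 109 TPM at day 4 and 360 TPM at day 0, Mtf2 had 104 and 284 TPM, and Eed had 147 and 317 TPM. Cbx2, a reader subunit of the PRC1 complex, was the higher one with 20.6 and 9.64 TPM. Jarid2 was lower in both lines by less, with log2 differences of -0.52 in G6 and -0.49 in H8.

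Epithelial junction genes were retained while some genes of epithelial-mesenchymal transition were gained. Of 23 epithelial genes, 21 passed the filter, 4 were higher and 1 lower, and 16 lay within 2-fold. Cdh1 (E-cadherin) had 276 TPM at day 4 and 253 TPM at day 0. Rab25, an epithelial trafficking GTPase, had 19.8 and 4.76 TPM, and the claudin gene Cldn7 had 53.5 and 23.6 TPM. Cdh2 (N-cadherin), the cadherin of mesoderm, had 82.0 TPM at day 4 and 12.5 TPM at day 0, and Snai1, the repressor of Cdh1 in the streak, had 55.7 and 4.75 TPM. In the lines Snai1 reached 4.44 TPM in G6 and 5.53 TPM in H8 at day 4, against 1.24 and 3.24 TPM at day 0. Both cadherins were thus present at day 4 in wild type, in RNA pooled over all cells.

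The list of epithelial-mesenchymal transition and mesenchyme, for all that, had 12 lower genes and 4 higher ones of 22 above the filter (of 24), with a median of -1.15. The 4 higher genes were Snai1, Cdh2, Zeb2 (15.3 and 6.63 TPM at day 4 and day 0) and Twist1 (11.2 and 4.77 TPM), 3 transcription factors and the cadherin of the transition, but the related factors Zeb1 and Twist2 (chosen after their values were seen) were among the lower genes, with log2 differences of -1.13 and -2.05. The lower ones named by rule were matrix and contractile genes of fibroblasts. Col1a2 had 1.20 TPM at day 4 and 72.4 TPM at day 0, Col1a1 had 1.28 and 54.5 TPM, Postn had 0.13 and 17.2 TPM, and Acta2 (smooth muscle actin) had 3.62 and 153 TPM. The same collagens were lower in the lines, with Col1a2 at 0.758 and 51.0 TPM in G6 and 0.753 and 24.0 TPM in H8.

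Over all genes, the 15 protein-coding genes with the largest negative log2 differences included Ccl2, Lox, Emp1, Ccl7, Bgn, Tnc, Ifi202b, S100a4, Inhba, Igfbp7, Col1a2, Acta2, Tm4sf1 and Mmp3. Ccl2, a chemokine that attracts monocytes, had 0.457 TPM at day 4 and 146 TPM at day 0. Lox, the collagen cross-linking enzyme, had 0.204 and 97.8 TPM, and Tnc, the matrix protein tenascin C, had 0.783 and 118 TPM. Ccl7, another chemokine, and Ifi202b, an interferon-inducible DNA sensor, had 0 counts at day 4 in wild type, and against a floor of 3 counts in that library were at least 1169-fold and at least 2361-fold lower. All 15 were lower at day 4 in both lines too. Beside these values, the 6 fibroblast markers summed to 15.9 TPM at day 4 and 129.8 TPM at day 0 in G6, and to 20.1 and 67.6 TPM in H8, with Lum at 0.0959 TPM or less in each of these libraries and in wild type. Most of the day 4 sum in each line came from Thy1, with 14.0 TPM at day 4 and 24.4 TPM at day 0 in G6. In H8, Thy1 lay the other way from the sum, with 17.7 and 10.7 TPM. The part of any fibroblasts in the losses above was not tested.

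**Figure D4:**
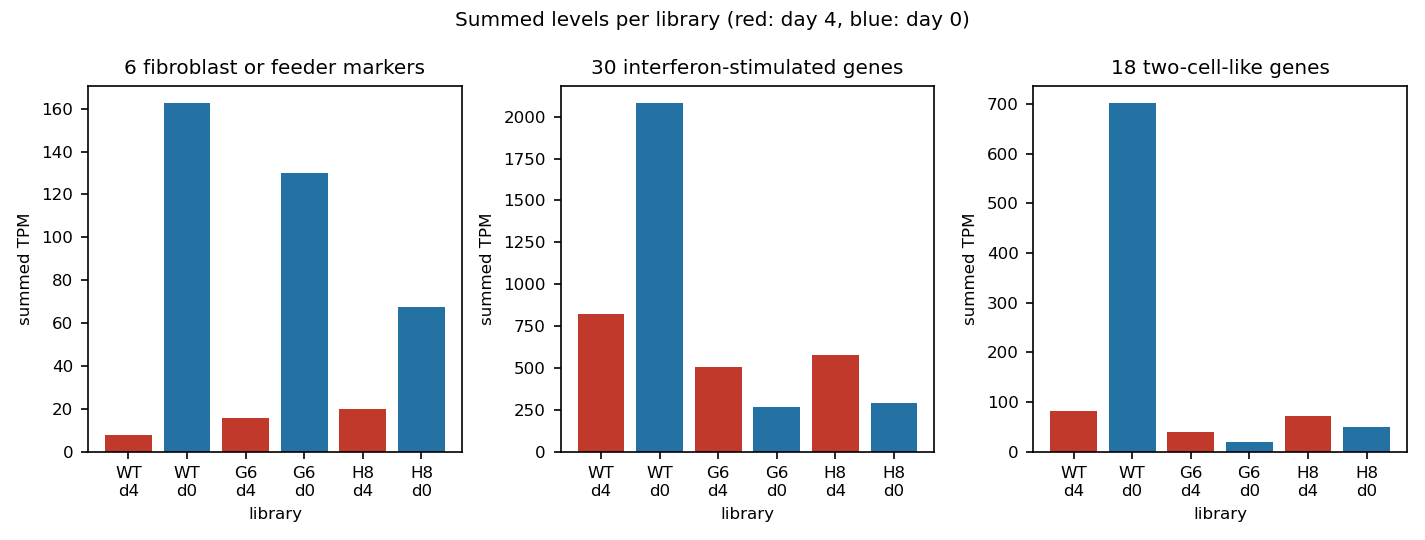
Summed TPM of 6 fibroblast or feeder markers, 30 interferon-stimulated genes and 18 two-cell-like genes in each library (bars start at 0; day 4 is left of day 0, d4 and d0, for wild type, G6 and H8). The fibroblast marker sum is lower at day 4 in all 3 backgrounds. The sums of the other lists are lower at day 4 in wild type and higher at day 4 in both lines.

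Interferon-stimulated genes were lower at day 4 in wild type. Of 30, 28 passed the filter, 22 were lower and 1 was higher, with a median of -1.93, against 0.489 in G6 and 0.741 in H8. Oas2, an antiviral oligoadenylate synthetase, had 0.131 TPM at day 4 and 26.8 TPM at day 0, Xaf1, an apoptosis factor, had 4.63 and 109 TPM, and Ifit1, which binds foreign RNA ends, had 1.77 and 36.3 TPM. Xaf1 had the same direction in the lines (1.86 and 37.4 TPM in G6, 2.62 and 44.4 TPM in H8). Ifit1 was at 0.271 TPM or less in all 4 knockout libraries. Usp18, the ISG15 protease, had 10.7 TPM at day 4 and 113 TPM at day 0 in wild type and at most 0.913 TPM in the lines.

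The summed level of the 30 interferon-stimulated genes was 820 TPM at day 4 and 2079 TPM at day 0 in wild type, 507 and 264 TPM in G6, and 580 and 293 TPM in H8. Wild type at day 0 thus had the highest sum of the 6 libraries. Psmb8, an immunoproteasome subunit, was the member higher at day 4 in wild type, with 55.7 and 9.08 TPM, and was higher in both lines. Of the 23 members past 2-fold in wild type, 8 had the same sign in both lines, against 1431 of all 2084 genes past 2-fold. Among the same 6 libraries, the day 0 wild-type library also had the highest fibroblast marker sum (162.5 TPM). The day 0 library of G6 had the next highest (129.8 TPM), with the lowest interferon-stimulated sum of the 6. The part of any fibroblasts in the interferon values was not tested.

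Two-cell-like genes mark a rare state of stem cell cultures that resembles the 2-cell embryo. Of 18 in the files, 15 passed the filter and all 15 were lower at day 4, with a median of -2.41 (-2.25 over all 18). A member below 5 TPM at day 4 passed the filter only through its day 0 level. The 15 of 15 therefore describes these members and supports nothing. Zscan4f, a member of the Zscan4 telomere factors, had 22.1 TPM at day 4 and 189 TPM at day 0, and Zscan4c had 11.2 and 95.7 TPM. None of the 15 had the same sign in both lines. Zscan4f had 8.27 and 4.57 TPM in G6 and 15.6 and 11.4 TPM in H8, and the whole list summed to 82.2 and 701 TPM at day 4 and day 0 in wild type, 40.5 and 18.6 TPM in G6, and 72.8 and 49.0 TPM in H8. The day 4 sums were alike in wild type and H8, and the day 0 sums were not. The Zscan4 and Usp17-like genes are near-identical copies, so the split of reads among them is uncertain.

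**Figure D5:**
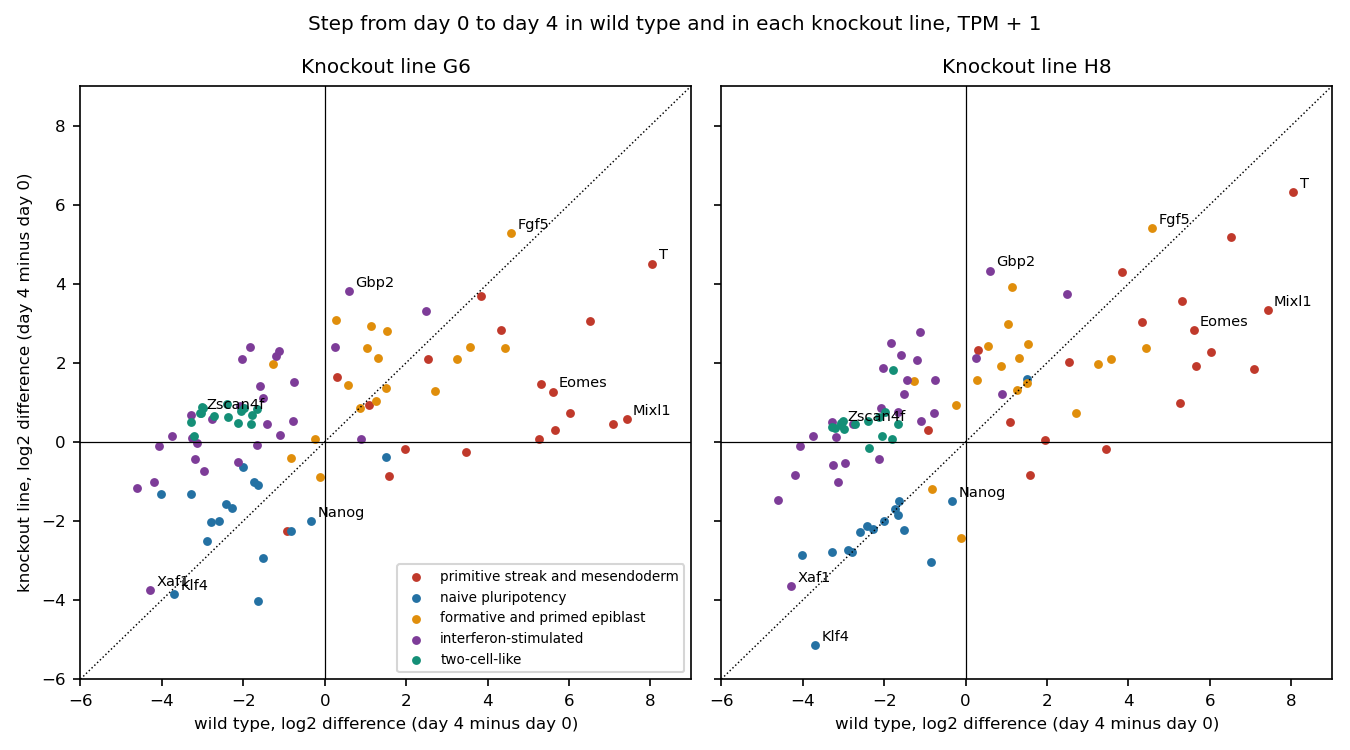
Log2 difference of TPM + 1 (day 4 minus day 0) of members above the filter in 5 lists, in knockout line G6 (left) or H8 (right) on the vertical axis and in wild type on the horizontal axis. Naive genes lie below 0 in wild type and in the lines, save for Dppa3 in wild type and in H8. Formative genes lie mostly above 0, and streak genes mostly lie below the dotted line of equal change. Two-cell-like genes lie left of 0 in wild type and mostly above 0 in the lines.

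Later lineages were mostly below the filter at day 4, as the count of measurable members shows. Of 20 cardiac genes, 17 were below it, including the defining markers Tnnt2 (0.642 TPM at day 4 and 0.877 TPM at day 0) and Nkx2-5 (0.0378 and 0.724 TPM). Myl7, an atrial myosin light chain present early in cardiac mesoderm, had 23.5 and 5.51 TPM. The list had 2 higher and no lower genes of 3. Of 20 haemato-endothelial genes, 13 were below the filter, with 4 higher and 3 lower of the rest. The median was 1.83 over those 7 and -0.0389 over all 20. The higher ones were the early genes Etv2, Kdr, Lmo2 (10.7 and 1.92 TPM) and Flt1, and the lower ones Pecam1, Tek (1.22 and 11.0 TPM), an endothelial receptor, and Cd34 (1.37 and 7.97 TPM), a progenitor and stromal surface protein.

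Most neural genes were below the filter. Of 20 neuroectodermal and neuronal genes, 14 were below the filter, and of 6 above it 1 was higher and 3 lower. Sox1, the first marker of the neural plate, had 0 counts at day 4 and 0.789 TPM at day 0, and Pax6, a neural and eye factor, had 0.289 and 9.57 TPM. Msi1, an RNA-binding protein of neural progenitors, was the higher one with 27.0 and 5.04 TPM, and Tubb3, a neuronal tubulin, had 6.35 and 38.1 TPM. Nes, an intermediate filament of progenitors, lay within 2-fold with 58.5 and 30.6 TPM, and Zfp521, a neural marker below the filter, had 4.15 and 0.56 TPM. Summed over the list, levels were 106.5 TPM at day 4 and 104.3 TPM at day 0, while single members lay in both directions. Trophoblast genes gave 2 higher and no lower of 5 above the filter (of 16). The higher ones, Cdx2 (17.3 and 1.31 TPM) and Hand1 (10.4 and 1.47 TPM), are also genes of posterior and lateral mesoderm, and the placental hormone gene Prl3d1 and Tpbpa had 0 counts on both days.

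Of 20 extraembryonic endoderm genes, 12 passed the filter, with 3 higher (Gata6, Sox17 and Pdgfra, shared with the embryonic germ layers) and 5 lower. The lower ones were Rhox5 and genes of the basement membrane and matrix, among them Col4a1 (27.8 TPM at day 4 and 94.3 TPM at day 0), Sparc (140 and 405 TPM) and Lama1 (4.25 and 36.7 TPM). Afp and Ttr, which define the visceral endoderm, stood at 0.592 TPM or less on both days. Of 14 primordial germ cell genes, 13 passed the filter, 3 were higher and 5 lower. Stra8, a retinoic acid-induced meiotic gene, had 0.267 and 22.5 TPM, and Dazl, a germ cell RNA-binding protein, had 3.52 and 23.2 TPM. Dnd1, an RNA-binding protein that protects germ cells, had 16.1 and 5.39 TPM.

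Positional genes had barely started. Of 39 Hox genes, 37 were below 5 TPM on both days. Hoxb1, the first of its cluster to be transcribed in the streak, had 6.91 TPM at day 4 and 0.33 TPM at day 0, and was at 0.674 TPM in G6 and 0.384 TPM in H8 at day 4 with 0 counts at day 0. Of 3 caudal genes, Cdx2 passed the filter and Cdx1 (4.7 and 4.42 TPM) and Cdx4 (0.609 and 0.59 TPM) did not. Cyp26a1, which encodes the enzyme that clears retinoic acid and was among the 15 largest gains, had 197 TPM at day 4 and 3.36 TPM at day 0.

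Medians of the housekeeping and metabolic lists were close to the median of all genes. Of 28 cell cycle genes, none was higher and 2 were lower (Ccnd2, 15.1 and 38.2 TPM at day 4 and day 0, and Ccne1, 86.3 and 195 TPM), both of them G1 cyclins. Of 20 cholesterol synthesis genes above the filter (of 21), none passed 2-fold. Of 26 glycolysis and hypoxia genes (of 27), 1 was higher and 1 lower. Summed over the 27, levels were 13422.5 TPM at day 4 and 9214.5 TPM at day 0. Lactate dehydrogenase A (Ldha) had 2554 TPM at day 4 and 818 TPM at day 0, and the phosphofructokinase gene Pfkp had 63.2 and 131 TPM.

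Immediate early and stress genes gave 7 higher and 1 lower of 15 above the filter (of 18 in the files), with a median of 0.79. Jun, a subunit of the AP-1 factor, had 172 TPM at day 4 and 26.0 TPM at day 0, and Ier2 had 341 and 129 TPM. While 1431 of all 2084 genes past 2-fold had the same sign in both lines, 1 of these 8 genes (Jun) did. Such genes respond within minutes to handling of cells as well as to growth factors, and the labels say nothing of the time from harvest to lysis. Of 28 imprinted genes, 23 passed the filter, 8 were higher and 1 lower, with a median of 0.523. Peg3, a paternally expressed zinc finger gene, had 248 TPM at day 4 and 44.9 TPM at day 0, and Magel2, a paternally expressed ubiquitin ligase regulator, had 14.6 and 1.13 TPM. Both were also higher in both lines by a log2 difference of 1.8 or more. Plagl1 was the lower one, with 7.64 and 23.3 TPM.

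The 15 largest gains over all protein-coding genes were T, Mixl1, Lhx1, Fgf8, Mesp1, Evx1, Msx1, Aplnr, Gsc, Sprr2a2, Eomes, Cyp26a1, Sp5, Cer1 and Alox15. Besides Cyp26a1, those outside the gastrulation lists were Sprr2a2, a cornified envelope protein, with 101 TPM at day 4 and 1.08 TPM at day 0, and Alox15, a lipoxygenase that oxidizes polyunsaturated fatty acids, with 96.4 and 1.98 TPM. Sprr2a2 has near-identical neighbours, so its reads could be split. Alox15 was higher in both lines, with 7.7 TPM at day 4 and 0.229 TPM at day 0 in G6, and 18.5 and 0.149 TPM in H8. None of the 15 was lower in either line, though Mesp1 was at 0 counts on both days in G6.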

How the data were processed

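PolyA+ RNA was sequenced and the authors deposited raw counts and TPM values per gene for each of the 9 libraries. HISAT2 2.0.5, StringTie 1.3.3b and build mm10 are named in the submitters' processing notes; their roles, the annotation, the counter and whether strand was used are not given in the sources used here. TPM is relative to all transcripts of a library, so a few abundant genes move the values of the others. All 49311 named identifiers were found in GENCODE M21, which gave gene types and overlaps. The 259 unnamed entries, with 0.0596% of TPM in wild-type day 0, were left out.

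Differences are log2((TPM + 1 at day 4)/(TPM + 1 at day 0)) over genes with at least 5 TPM on either day, counted from 2-fold. Ratios given as n-fold are of TPM without the added 1. No test was run, because each wild-type day is 1 library, and each knockout step is 1 pair of libraries. Depths are given in the report. Floors of 3 counts cover counting error only, and the uneven low counts may make them too narrow.

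The members and the 32 gene lists were chosen with earlier results of these data known. Lists share members. Named are up to 6 kept members per list with the largest absolute difference, members 2-fold or more against their list's median, 30 marker genes, and the 15 largest protein-coding differences each way. Members under the filter, and all members of a count of 5 or fewer, were named after their values were seen. Alternatives were a pseudocount of 0.1 TPM, a filter at 1 TPM or none, counts scaled by edgeR's TMM factors (4.0.16), DESeq2 size factors (1.42.0) or totals under R 4.3.3, centring on the median, 4-fold, protein-coding genes alone, and each line alone. Python 3.11.15 with pandas 2.3.3, numpy 2.4.6 and matplotlib 3.10.9 did the rest, tested on simulated data. A few genes that the rule names are not reported here. Day 8 libraries entered only the scaling factors and the range given for low counts on multiples of 4.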

Additional observations from a re-analysis of the deposited data

Results flagged for a closer look

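In 3 named genes the wild-type step was 2-fold or more one way and the step of both knockout lines was 2-fold or more the other way on the log2(TPM + 1) scale. In Lefty1, Adm and Map2 both lines also lay 2-fold or more the other way, but wild type was within 2-fold. The difference between wild type and the lines was not tested, since each step is 1 pair of libraries. Fos, an AP-1 subunit and immediate early gene, had a log2 difference (day 4 minus day 0) of 1.41 in wild type, against -1.6 in G6 and -3.61 in H8. Ier3, an early response gene, had -1.15 in wild type, against 1.69 in G6 and 1.72 in H8. Grhl2, an epithelial factor of the formative epiblast, had -1.28 in wild type, against 1.97 in G6 and 1.55 in H8. Both knockout steps rest on the shallow day 0 libraries, and the part of depth in these values was not tested.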

How the results depend on the processing

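No paired analysis was possible because each wild-type day is 1 library and no result comes from a test. Counts moved by over 1.5 times with the level filter and with the fold. With a filter at 1 TPM and with none, 1891 genes were lower at day 4 (both settings give the same genes, since a 2-fold difference of TPM + 1 needs at least 1 TPM). At 4-fold, 187 genes were higher and 448 lower, of which 155 and 322 had the same direction in both knockout lines. Under the pseudocount of 0.1 TPM, the 3 count scalings, centring and protein-coding genes alone, between 731 and 990 genes were higher and between 1084 and 1359 lower. With each line alone, 682 to 749 of the higher genes and 846 to 940 of the lower genes had the wild-type direction. Medians were recomputed for lists with at least 3 members above the filter, so not for the Hox and caudal genes. Of these values, 194 moved by less than the spread between the lines, and the others by more. The haemato-endothelial median was -0.156 with no level filter, against 1.83 with it, since members below 5 TPM then enter (3 globin genes at 0 on both days left out). Medians near 0 changed sign under the 3 count scalings for DNA methylation (0.138 to 0.149, against -0.183 on TPM) and for extraembryonic endoderm (-0.033 to -0.022, against 0.026). No named gene past 2-fold turned its sign under any scaling. With 1 library a day, the spread between cultures of wild type is not known, and genes near the 2-fold line may fall on either side of it.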

Other observations

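Genes annotated as lincRNA, a class of long noncoding RNA, passed 2-fold in both directions more often than protein-coding genes, by count. Of 113 lincRNAs, 13 were higher (11.5%) and 31 lower (27.4%). Of 10856 protein-coding genes, 731 were higher (6.73%) and 1084 lower (9.99%). The transcripts named in this part were chosen after their values were seen. Halr1, transcribed beside the Hoxa cluster, had 3.34 TPM at day 4 and 138.8 TPM at day 0 in wild type, with log2 differences of -2.19 in G6 and -1.93 in H8. Lncenc1, a noncoding RNA abundant in naive stem cells, had 31.1 and 183.4 TPM and was lower in both lines too. Platr10, another transcript known from stem cells, had 86.6 and 380.6 TPM in wild type but was higher in both lines, with log2 differences of 0.83 in G6 and 0.42 in H8. Lhx1os, transcribed next to Lhx1, had 9.69 TPM at day 4 and was listed at 0 at day 0. Small RNAs are poorly captured in polyA+ libraries. Of 58 genes annotated as miRNA, 18 were higher (31.0%) and 7 lower (12.1%). Of 127 snoRNA genes, 24 were higher (18.9%) and 7 lower (5.51%). Over all genes kept, 6.92% were higher and 9.9% lower. Reads of host transcripts can be counted on both kinds, and that was not tested.

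Several protein-coding genes outside the lists were higher at day 4 in wild type and in both lines. Vrtn, which encodes vertnin, a factor linked to vertebra number in pigs, had 111.4 TPM at day 4 and 4.77 TPM at day 0, with log2 differences of 4.28 in wild type, 3.55 in G6 and 4.48 in H8. Epha1, an ephrin receptor, had 190.4 and 15.2 TPM, with 3.57 in wild type, 3.26 in G6 and 3.93 in H8. Amot, a scaffold of the Hippo pathway, had 214.2 and 12.7 TPM. The retrotransposon-derived genes Rtl8a, Rtl8b and Rtl8c were higher together, with 69.8, 110.9 and 75.7 TPM at day 4 against 6.31, 8.06 and 2.51 TPM at day 0. They are close copies of one another, so the split of reads among them is uncertain. Pim2, a kinase gene, had 437.6 and 71.7 TPM in wild type, a log2 difference of 2.59, against 4.22 in G6 and 4.51 in H8.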
